A study of Nicotiana tabacum with 32 samples.

Results

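The effect of silencing SIPK was measured in tobacco suspension cells treated with harpin for 4 h. The arrays used were the 3 that set SIPK-silenced against wild-type cells at this time, chosen by their titles, out of 32 arrays in the series. Each of the 3 arrays carried RNA of SIPK-silenced Nicotiana tabacum cv. Xanthi cells with harpin for 4 h (Cy3) and of wild-type Xanthi cells with harpin for 4 h (Cy5). They were set beside 3 arrays of silenced against wild-type cells without harpin, the biotic control at 0 h, and 18 arrays of silenced against wild-type cells in 6 other conditions of 3 arrays each: harpin at 8 h, megaspermin (a Phytophthora elicitor) at 4 h and 8 h, a control preincubated with xanthine, and xanthine oxidase at 4 h and 8 h. A further 3 arrays set wild-type cells with harpin for 4 h against wild-type cells of the biotic control. The silenced cells were made by RNA interference, and the labels name no promoter and do not say whether they came from 1 transformed line. Each genotype was grown as cultures that were combined and then split into 3 volumes of 10 ml, so p-values measure the spread between volumes of a shared pool. With controls only at 0 h, harpin and elapsed time cannot be told apart.

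SIPK, the salicylic acid-induced protein kinase of tobacco, is a mitogen-activated protein kinase that is activated within minutes of wounding, pathogen elicitors and reactive oxygen, and it passes the signal on by phosphorylating enzymes and transcription factors. In Arabidopsis the counterpart of SIPK phosphorylates enzymes that make ethylene, and in tobacco SIPK phosphorylates a WRKY transcription factor. Harpin is a secreted protein of the plant pathogen Pseudomonas syringae that makes tobacco cells mount a defence response and can kill them. No symbol on the array could be matched to SIPK itself, and the depth of the silencing was not measured here.

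The values were log ratios of the 2 channels, read as log2, which was assumed because the base is not given in the sources used here. A positive value was taken to mean more RNA in the silenced cells. That direction is likely rather than certain, since the labels call the silenced cells the query while the titles put the wild type first. A control array with exchanged dyes and exchanged label roles still correlated positively with its standard arrays (r = 0.639 to 0.707). The dye-exchanged array of wild-type cells with harpin did so too (r = 0.825 to 0.899). The signs of both were therefore taken as already turned, which the sources used here do not state. Read as log2, a value of 1 would be a doubling. The array holds potato cDNA clones, each spotted in duplicate, and 815 of 15360 clones carried a single potato gene symbol, 157 of them a gene name and the others a locus number. A potato clone reads the matching tobacco transcript and can also bind its relatives, and different clones of a gene did not always give the same value. The 3 harpin arrays gave a value for 7605, 9673 and 8199 clones, and their correlations with each other over clones were 0.668, 0.836 and 0.733, the lowest between arrays 1 and 2. In bulk RNA of a culture, fewer cells and less RNA per cell cannot be told apart.

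Among clones named for a known function, silenced cells at 4 h of harpin had most excess RNA of an ethylene receptor, an alcohol dehydrogenase, a polyphenol oxidase and a serine hydroxymethyltransferase, and the deepest deficit of a UDP-glucose 4-epimerase, a catalase and an alpha-amylase. Of 8503 clones tested, 2664 differed between silenced and wild-type cells (31.3%; limma, Benjamini-Hochberg adjusted p under 0.05), 1274 of them higher (14.98%) and 1390 lower (16.35%). The log ratios ran from -3.33 to 3.72 with a median of -0.02, and 498 of the clones called differed by at least 1, 251 higher and 247 lower. Among the 132 clones with a gene name that were tested, 23 were higher and 20 lower. With a dye term estimated from 2 dye-exchanged arrays, 1644 clones were called.

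ERS, an ethylene receptor, had log ratios of 3.00, 1.61 and 2.96 on the 3 arrays, a mean of 2.53 ± 0.28 (SE, n = 3), or 5.76-fold if the base is 2. ADH1, alcohol dehydrogenase of fermentation, had 2.33, 1.57 and 2.77, a mean of 2.22 ± 0.25. Array 2 gave the lowest value of both, and all 3 arrays stood far above 0. SHMT, which feeds carbon units into the methionine cycle, had 1.48, 1.11 and 1.26, a mean of 1.28 ± 0.17. PEST2 had 1.47, 0.98 and 1.58, a mean of 1.35 ± 0.15. SS16 was read by 3 clones that disagreed: means of 1.95 ± 0.20 and 1.64 ± 0.21 were higher in silenced cells, while the remaining clone was lower at -0.46 ± 0.11. The adjusted p was 7.41e-07 for SHMT, and smaller for ERS, ADH1 and PEST2.

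On the lower side, STUGE51, a UDP-glucose 4-epimerase that supplies galactose units for the cell wall, had -1.84, -1.77 and -1.72 on the 3 arrays, a mean of -1.77 ± 0.16 (limma adjusted p = 1.26e-09). Its other clone had -1.27, -1.59 and -1.59, a mean of -1.48 ± 0.15, so both clones were lower on every array. CAT1, a catalase that breaks down hydrogen peroxide, had -1.45, -1.19 and -1.28 for 1 clone, a mean of -1.31 ± 0.12. Another CAT1 clone was lower as well, at -0.67 ± 0.15, and the remaining one was not called, at 0.18 ± 0.19. AMYA1, an alpha-amylase that degrades starch, had -0.94, -1.04 and -0.78, a mean of -0.92 ± 0.12. These 3 genes had values of 1 sign on all 3 arrays for every clone called.

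**Figure D1:**
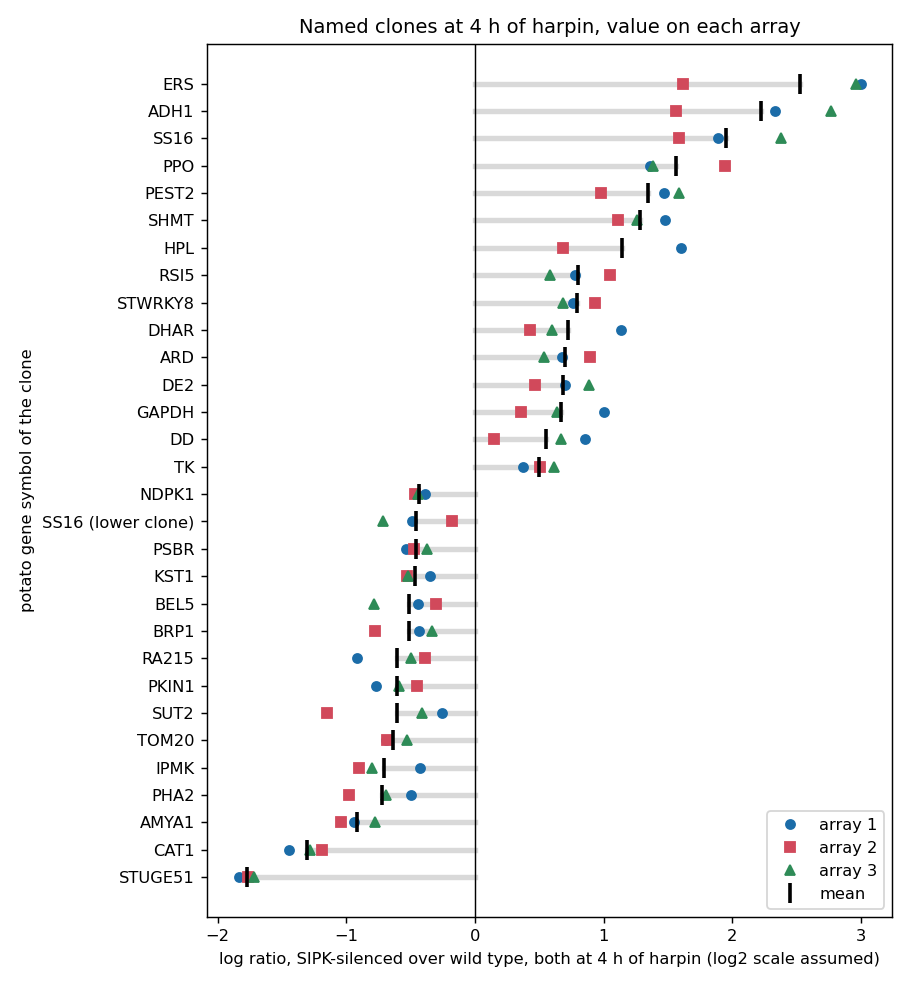
Log ratio of SIPK-silenced over wild-type cells, both at 4 h of harpin (x axis, log2 scale assumed), for the 30 clones with a gene name taken by the naming rule (y axis). Each symbol is 1 array, the black bar the mean, and the grey bar runs from 0 to the mean: ERS lies at 1.61 to 3.00 and STUGE51 at -1.84 to -1.72.

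Smaller effects were spread over several functions. Higher in silenced cells were the ascorbate-recycling enzyme DHAR (0.72 ± 0.17), the methionine salvage enzyme ARD (0.70 ± 0.14) and the transketolase TK (0.50 ± 0.13 in 1 of 2 clones). RSI5 (0.80 ± 0.30), DE2 (0.68 ± 0.14) and DD (0.56 ± 0.19) were also higher. Lower were PHA2, a plasma membrane proton pump (-0.72 ± 0.20 in 1 of 4 clones), the mitochondrial import receptor TOM20 (-0.64 ± 0.12), the sucrose transporter SUT2 (-0.61 ± 0.15) and PKIN1, a kinase related to SNF1 (-0.60 ± 0.14). Further down in size were the homeodomain factor BEL5 (-0.51 ± 0.14 in 1 of 2 clones), the potassium channel KST1 (-0.47 ± 0.14 in the clone called), the photosystem II subunit PSBR (-0.46 ± 0.14 in 1 of 2 clones tested) and the nucleoside diphosphate kinase NDPK1 (-0.43 ± 0.11). The other BEL5 clone stood at 0.13 and the other PSBR clone at 0.31, neither called. IPMK (-0.71 ± 0.14), RA215 (-0.60 ± 0.12) and BRP1 (-0.52 ± 0.13) were lower too. Leaving out 1 array ended some of these calls, without a change of sign. Without array 1 DHAR stood at 0.51, PSBR at -0.42 and DD at 0.41. Without array 2 PHA2 stood at -0.60, SUT2 at -0.33, BRP1 at -0.38 and KST1 at -0.43. Without array 3 the values were -0.37 for BEL5, -0.44 for KST1, 0.50 for DD and -0.33 for the lower SS16 clone. RSI5 was not called with any of the 3 left out, at 0.68 to 0.91. With the dye term NDPK1 (-0.32), BRP1 (-0.29), SUT2 (-0.42), PHA2 (-0.72) and RSI5 (0.70) were not called (limma adjusted p = 0.0820 to 0.221). When the 3 arrays were fitted alone, DD, SUT2 and the lower SS16 clone kept their values but were not called.

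The lists below were described by counts against the shares of all clones, 14.98% higher and 16.35% lower. They were chosen with earlier results of these data known, so their counts are descriptions only. Of 9 defence and stress clones tested, 6 were higher, 0 lower and 3 not called, with a median of 0.79 against -0.02 over all clones tested. The 6 were clones of 3 genes, 2 for each. PPO, a polyphenol oxidase that browns wounded tissue, had 1.36, 1.94 and 1.38 in 1 clone, a mean of 1.56 ± 0.20, and 0.34, 1.53 and 1.45 in the other, a mean of 1.11 ± 0.18. Array 1 of that second clone was well below its other 2 arrays. STWRKY8, a WRKY transcription factor, had 0.76, 0.93 and 0.69 in 1 clone (0.79 ± 0.16) and 0.68, 0.51 and 0.71 in the other (0.63 ± 0.16). HPL, a hydroperoxide lyase that makes leaf aldehydes from oxidised fatty acids, was measured on only 2 arrays for each clone, with 1.60 and 0.68 in 1 and 0.43 and 1.25 in the other, and the pair of values differed widely in both. Not called were NAC2, a NAC transcription factor (-0.07 ± 0.15), the vacuolar processing enzyme VPE2 (-0.29 ± 0.13) and the pathogenesis-related protein PR1B (0.33 ± 0.18, 2 arrays). With the dye term 3 of the 9 were called, all higher, while the HPL clones at 0.86 and 0.55 and the second STWRKY8 clone at 0.43 were not (limma adjusted p = 0.0718 to 0.270).

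Of 20 clones for ethylene, the methionine cycle and one-carbon metabolism, 3 were higher (ERS, SHMT and ARD) and 2 lower, with a median of -0.11. Methionine and its product S-adenosylmethionine are the precursors of ethylene. The 9 METK1 clones, for S-adenosylmethionine synthetase, lay at -0.41 to -0.05, and only the lowest was called. The 5 clones of the methionine synthase MS lay at -0.02 to 0.35 and none was called. The threonine synthase TS, which draws on the same precursor as methionine, was lower (-0.42 ± 0.16), with -0.78 on array 1 and -0.26 and -0.22 on the other arrays. The 14 clones of these METK1 and MS enzymes thus lay between -0.41 and 0.35. Both lower calls of this list were lost with the dye term (TS -0.36, METK1 -0.25), with the 3 arrays fitted alone, without array 1 (TS -0.24, METK1 -0.46) and without array 2 (TS -0.50, METK1 -0.44). The METK1 call was also lost without array 3 (-0.32), and the TS call with centred arrays (-0.40) and with the replicate block.

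Of 20 sugar, starch and glycolysis clones, 6 were higher and 3 lower, with a median of 0.09. GAPDH, the glycolytic glyceraldehyde-3-phosphate dehydrogenase, was higher in 3 of 8 clones (0.35 to 0.67) and not called in 5 (-0.04 to 0.28). Without array 1 the 3 clones read 0.50, 0.24 and 0.31 and none was called. The granule-bound starch synthase GBSS was higher in 1 clone (0.46 ± 0.14) and not called in the other (-0.27). PPA1, an inorganic pyrophosphatase, was lower (-0.35 ± 0.12). GBSS was not called without array 1 (0.43) or array 3 (0.31), nor PPA1 without array 1 (-0.38) or array 3 (-0.27), and neither was called with the dye term or with the 3 arrays fitted alone. Both clones of the phosphoglycerate mutase PGAM (-0.25 and -0.21), the pyruvate kinase PK (0.33) and the acid invertase PAIN-1 (0.03) were not called. Of this list 3 were higher and 1 lower with the dye term, and 2 higher and 2 lower of 19 without array 1.

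The other lists held few clones. In the redox list of 9, DHAR was higher and 2 CAT1 clones lower, while the alternative oxidase AOX (-0.06 ± 0.16) and both clones of the uncoupling protein UCP (0.20 and 0.18) were not called. In the membrane transport list of 9, the proton pump PHA1 was higher (0.28 ± 0.10) and 1 clone each of PHA2 and KST1 lower. PHA1 was not called with any 1 of the 3 arrays left out (0.26 to 0.30), with the dye term (0.26) or with the 3 arrays fitted alone. In the kinase list of 3, PKIN1 was lower, and the calcium-dependent kinases CDPK1 (-0.13) and CDPK2 (-0.12) were not called. In the cell wall list of 3, both STUGE51 clones were lower and the related STUGE45 was not called (-0.12). None of the 2 auxin, 3 cell cycle and 4 phenylpropanoid and flavonoid clones was called, and 1 of 2 PSBR clones, the photosynthesis list, was lower.

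**Figure D2:**
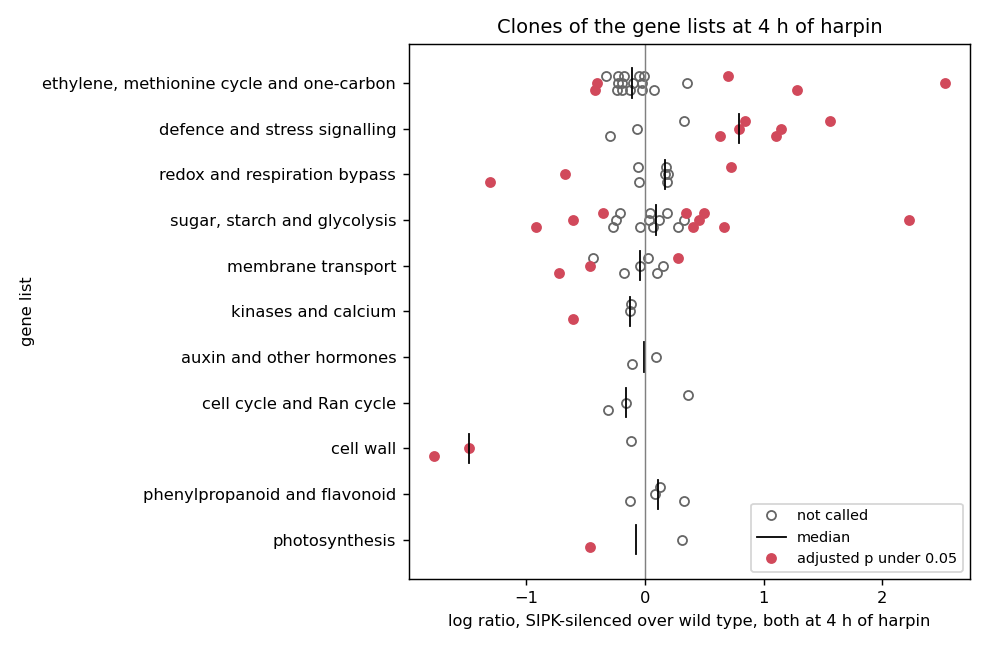
Log ratio of SIPK-silenced over wild-type cells at 4 h of harpin (x axis) for each clone tested in the 11 gene lists (y axis). Filled points passed an adjusted p of 0.05, open points did not, and the bar is the list's median: 6 of 9 defence clones are filled, all to the right of 0.

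Clones named only by a locus number held larger values than any clone with a gene name. LOC102577893 had 3.57, 3.42 and 3.76 on the 3 arrays, a mean of 3.58 ± 0.13, and its 2 other clones tested were higher too, at 3.101 and 2.23. LOC102577542 stood at 3.51 ± 0.31, LOC102592556 at 2.40 ± 0.15 with 3 more clones at 1.54 to 2.15, LOC102595943 at 1.68 ± 0.15 with 5 more at 0.61 to 1.52, and LOC102604154 at 1.62 ± 0.25. All of the clones tested at these 5 loci were called higher. On the lower side LOC102585195 had -3.81, -2.92 and -3.27, a mean of -3.33 ± 0.21. LOC102577658 (-1.98 ± 0.14), LOC102591690 (-1.92 ± 0.16) and LOC102590882 (-1.88 ± 0.14) followed. LOC102587499 reached -2.003 ± 0.26 in 1 clone, but its 10 clones ran from there up to 1.205, with 4 called lower and 1 higher, so no direction is given for that locus.

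The next question was which of these differences were specific to harpin-treated cells and which were there before treatment. Between the biotic control and 4 h of harpin the silencing effect changed for 1198 of 8429 clones (14.2%), upward for 540 (6.41%) and downward for 658 (7.81%). A change here is the mean of the 3 harpin arrays minus that of the 3 control arrays, and it equals the difference between the harpin responses of silenced and wild-type cells. Of the 1198 clones, 407 differed between genotypes only at 4 h of harpin, 447 only in the control, 203 in both with 1 sign, 102 in both with opposite signs and 39 in neither by their own tests. In the control 29.0% of clones were called. Without 1 array at a time the count lay between 805 and 993, and with array weights it was 2114.

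Among the 132 clones with a gene name, 18 changed downward and 1 upward, against 7.81% and 6.41% of all clones. The upward one was a STWRKY8 clone, with 0.76, 0.93 and 0.69 at 4 h of harpin and 0.12, -0.07 and -0.28 in the control. All 3 harpin arrays lay above all 3 control arrays, a change of 0.87 ± 0.22 (limma adjusted p = 0.00963). Separation of the arrays, here and for the genes below, was favoured by choosing called changes. It adds no separate support, and its share over all clones is not given. The other STWRKY8 clone showed 0.68, 0.51 and 0.71 at 4 h of harpin and 0.24, 0.19 and -0.02 in the control. Its arrays did not overlap either, but the change of 0.50 ± 0.23 was not called. Without control array 3 the first clone changed by 0.77 (adjusted p = 0.0502). Over the other 7 conditions the first clone had a mean of 0.34, and it was not called above that mean at 4 h of harpin.

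ADH1 and PPO were higher in silenced cells at both times, and less so with harpin than in the biotic control. ADH1 had 2.33, 1.57 and 2.77 at 4 h of harpin, against 3.99, 3.32 and 3.09 in the control, a change of -1.24 ± 0.35 (limma adjusted p = 0.0150). The groups did not overlap, yet the change was -0.92 without harpin array 2 and -0.98 without control array 1, and was called in neither case (adjusted p = 0.106 and 0.111). PPO had 0.34, 1.53 and 1.45 at 4 h of harpin, against 2.50, 1.76 and 2.27 in the control, a change of -1.07 ± 0.26, which was -0.68 and not called without harpin array 1. Its other clone changed by -0.88 ± 0.29, and was not called without harpin array 1 (-0.79) or 3 (-0.79) or control array 1 (-0.64) or 3 (-0.97). A SS16 clone changed by -1.18 ± 0.30, and by -0.89 without harpin array 2, when it was not called. Beside the mean of the other 7 conditions, the control among them, these clones did not all lie lower with harpin. ADH1 stood at 2.22 against 2.51 and this SS16 clone at 1.64 against 1.98. The PPO clones lay above that mean, at 1.11 against 0.88 and 1.56 against 1.04. ERS did not change measurably, with a mean of 2.53 at 4 h of harpin and 2.62 in the control and a 95% interval of -0.92 to 0.73 for the difference.

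STUGE51 and 1 of 3 CAT1 clones were lower in silenced cells at both times, and more so with harpin by a called change. STUGE51 had -1.84, -1.77 and -1.72 at 4 h of harpin, against -0.29, -0.58 and -0.55 in the control, a change of -1.30 ± 0.22 (limma adjusted p = 0.000197), and its other clone changed by -0.73 ± 0.22. That second clone was not called without harpin array 2 (-0.68) or 3 (-0.68), without control array 3 (-0.54) or with arrays scaled to a common spread (-0.65). CAT1 had -1.45, -1.19 and -1.28 at 4 h of harpin, against -0.29, -0.22 and -0.48 in the control, a change of -0.98 ± 0.17. The 2 groups of arrays stood apart for the clones with array values given, which adds no separate support, as said above. The other CAT1 clones changed by 0.66 and -0.39 and were not called, with intervals of 0.13 to 1.20 and -0.84 to 0.06. The one that changed by 0.66 stood at 0.18 with harpin, so the CAT1 clones disagreed. AMYA1 had -0.94, -1.04 and -0.78 at 4 h of harpin, against -0.23, -0.12 and -0.22 in the control, a change of -0.73 ± 0.18. PKIN1 had -0.77, -0.45 and -0.59 at 4 h of harpin, against 0.11, 0.12 and 0.02 in the control, a change of -0.69 ± 0.20. The PKIN1 change was not called without harpin array 1 (-0.60) or control array 1 (-0.67) or 2 (-0.67).

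PAIN-1 and NAC2 were higher in silenced cells of the control and near 0 with harpin. PAIN-1, the acid invertase that splits sucrose in the vacuole, had 0.08, -0.09 and 0.11 at 4 h of harpin, against 1.05, 0.89 and 0.98 in the control, a change of -0.94 ± 0.20 (limma adjusted p = 0.00153). NAC2 had 0.06, -0.28 and 0.03 at 4 h of harpin, against 0.92, 0.80 and 0.73 in the control, a change of -0.88 ± 0.22. For both genes the difference seen before treatment was not seen at 4 h of harpin. The GBSS clone called at 4 h of harpin was higher in silenced cells at both times, and less so with harpin. It had 0.51, 0.11 and 0.76 at 4 h of harpin, against 1.78, 1.44 and 1.71 in the control, a change of -1.19 ± 0.20. Its call at 4 h of harpin was lost in several settings, as given above. The other GBSS clone stood at -0.27 at 4 h of harpin, where it was not called. That clone changed by -0.79 ± 0.24, which was -0.58 and not called without control array 1. The aquaporin MIP2 had -0.23 and -0.13 on the 2 harpin arrays that measured it, against 1.74, 0.81 and 1.32 in the control, a change of -1.47 ± 0.32, while its other clone changed by 0.21 and was not called. CDPK2 changed by -0.66 ± 0.19, with -0.12 at 4 h of harpin and 0.54 in the control, and VPE2 by -0.71 ± 0.19, with -0.29 at 4 h of harpin and 0.41 in the control. The CDPK2 change was not called without harpin array 1 (-0.59) or 2 (-0.60) or control array 2 (-0.56), nor the VPE2 change without control array 1 (-0.63) or 3 (-0.64).

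**Figure D3:**
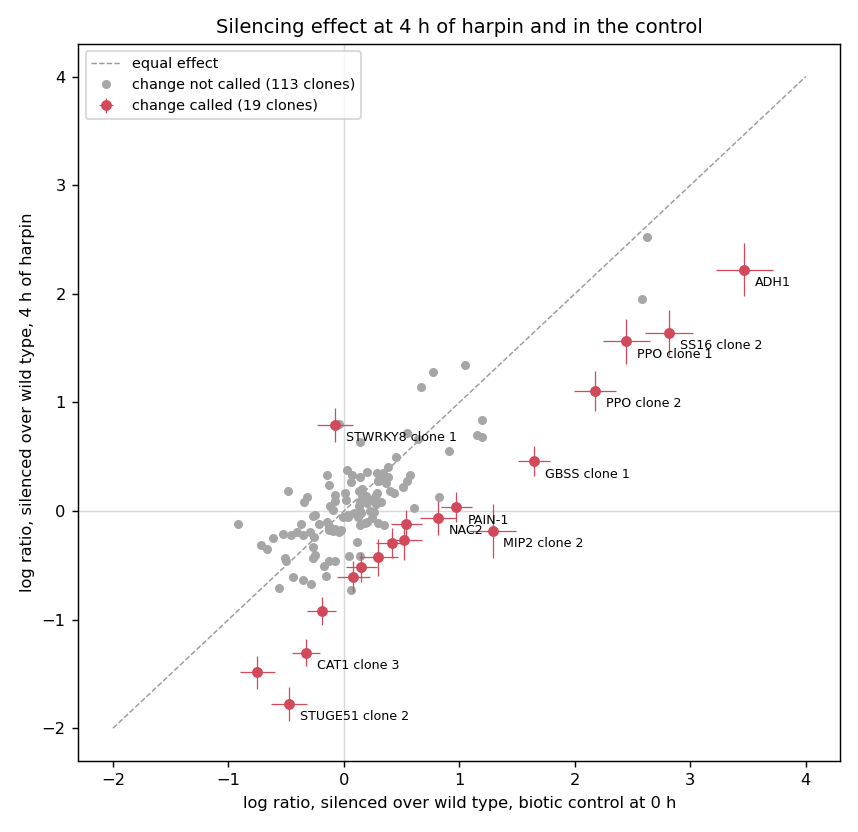
Silencing effect at 4 h of harpin (y axis) against that in the biotic control at 0 h (x axis), both as the log ratio of silenced over wild-type cells, for 132 clones with a gene name. Red points with standard errors are the 19 clones whose change was called, and 18 of them lie below the dashed line of equal effect.

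Over the lists, the change was called in 5 of 9 defence clones (1 upward, 4 downward), 5 of 20 sugar clones (0 upward, 5 downward), 2 of 3 kinase clones and 2 of 3 cell wall clones (all downward), 1 of 9 redox clones and 1 of 9 transport clones (both downward), and 0 of 20 ethylene and methionine clones, beside 6.41% upward and 7.81% downward over all clones tested. Several of these counts rested on 1 array. The 2 kinase calls became 0 without harpin array 1 or control array 2, and the 2 cell wall calls became 1 without harpin array 2 or 3 or control array 3. The 4 downward defence calls became 2 without harpin array 1 or control array 1, and without control array 3 the list had 2 downward and 0 upward. The 5 sugar calls became 3 without harpin array 2 or control array 1. The list medians were -0.35 for defence, -0.08 for sugar and -0.05 for ethylene and methionine, against 0.00 over all clones tested. For METK1, the 9 clones changed by -0.15 to 0.23, and every 95% interval included 0. Among locus-numbered clones, LOC102589404 rose most, with -0.35, -0.24 and -0.57 at 4 h of harpin, against -2.40, -2.04 and -1.98 in the control (change 1.75 ± 0.23). LOC102591352 fell most, with -1.58, -1.29 and -2.03 at 4 h of harpin, against 0.33, 0.14 and 0.03 in the control (change -1.80 ± 0.27). Both LOC102591690 clones changed downward as well, by -1.77 ± 0.22 and -1.61. LOC102582822 rose by 1.60 ± 0.31 in 1 clone, with 1.53, -0.30 and 0.65 at 4 h of harpin, while another of its 4 clones fell by 0.63, so its clones disagreed.

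Because the wild-type response to harpin was measured directly, the response of the silenced cells could be derived as the silencing effect at 4 h of harpin plus the wild-type response minus the silencing effect in the control. This value rests on 3 groups of arrays and also keeps 1 unbalanced dye contribution. By it 2150 of 6244 clones responded in silenced cells (34.4%; 988 up, 15.8%, and 1162 down, 18.6%), and 3548 of 6637 clones responded in the wild type (53.5%), with smaller standard errors. The 2 responses share the wild-type arrays, so they are given side by side only, and the test of their difference is the change given above. Leaving out wild-type array 2 left 1396 clones called in silenced cells, of 4532 that could still be tested. The derived response also rests on the direction of the genotype ratios, which is likely but not certain. With that sign turned, an alternative chosen after the data were seen, 2474 of 6244 clones responded (39.6%; 1202 up and 1272 down), and 1096 clones were called under both signs, 901 of them in 1 direction.

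Several genes that harpin raised in wild-type cells responded less in silenced cells, if the genotype ratios are silenced over wild type. With the sign turned they responded more, with PAIN-1 at 2.74, NAC2 at 2.59 and ADH1 at 2.96 in silenced cells. PAIN-1 rose by 0.86 ± 0.26 in silenced cells, against 1.80 ± 0.17 in wild-type cells. NAC2 rose by 0.83 ± 0.29 in silenced cells, against 1.71 ± 0.19 in wild-type cells. With arrays scaled to a common spread PAIN-1 stood at 0.14 and NAC2 at 0.17 in silenced cells, neither called, and the NAC2 response was also not called without harpin array 1 (0.77) or 3 (0.79) or control array 2 (0.82) or 3 (0.79). ADH1 stood at 0.47 ± 0.43 in silenced cells, where the response was not called, against 1.72 ± 0.25 in wild-type cells. AMYA1 stood at 0.44 ± 0.22 in silenced cells, against 1.16 ± 0.12 in wild-type cells, and CDPK2 at 0.11 ± 0.23 in silenced cells, against 0.77 ± 0.13 in wild-type cells. STUGE51 stood at -0.55 ± 0.27 in silenced cells, against 0.75 ± 0.16 in wild-type cells, in 1 clone, and at 0.26 ± 0.27 in silenced cells, against 0.998 ± 0.15 in wild-type cells, in the other. The responses of AMYA1, CDPK2 and STUGE51 were likewise called in the wild type alone. For each of them the difference itself was called, as the change of the silencing effect, but for ADH1, CDPK2 and the second STUGE51 clone that call was lost without 1 array, as given above.

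For other genes the response to harpin was more negative in silenced cells than in wild-type cells, if the genotype ratios are silenced over wild type. By the same reading both PPO clones and the GBSS clone were still at a higher level in silenced cells at 4 h of harpin. CAT1 fell by 1.27 in silenced cells, against a fall by 0.30 in wild-type cells, in the clone whose change was called. PPO stood at -1.76 ± 0.34 in silenced cells, against -0.70 ± 0.22 in wild-type cells, in 1 clone, and at -0.79 ± 0.35 in silenced cells, against 0.09 ± 0.20 in wild-type cells, in the other, where neither response was called. GBSS stood at -1.62 ± 0.26 in silenced cells, against -0.43 ± 0.17 in wild-type cells. VPE2 had a fall by 0.73 in silenced cells and a value of -0.02 in wild-type cells. The VPE2 response in silenced cells was not called without harpin array 2 (-0.65) or control array 1 (-0.65) or 3 (-0.66). STWRKY8 went the other way and rose by 1.35 ± 0.30 in silenced cells, against 0.48 ± 0.19 in wild-type cells. It was the only clone with a gene name whose change was called upward. With the sign turned, silenced cells had called rises for this CAT1 clone (0.68), GBSS (0.76), VPE2 (0.69) and the second PPO clone (0.98). The first PPO clone then stood at 0.37 and STWRKY8 at -0.39, neither called.

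**Figure D4:**
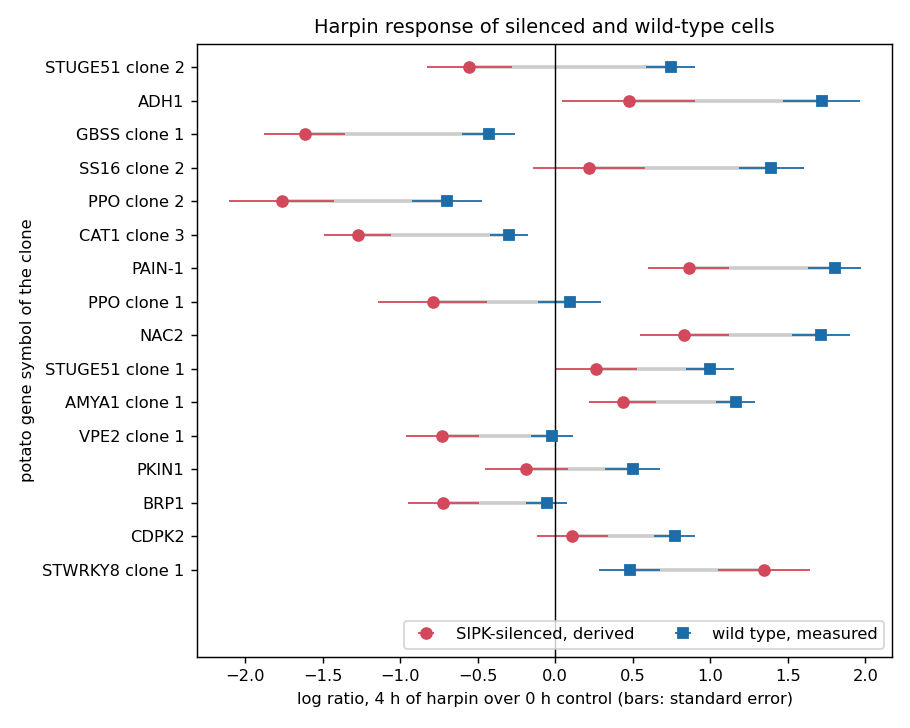
Log ratio of 4 h of harpin over the 0 h control (x axis, bars are standard errors) in SIPK-silenced cells (red, derived) and wild-type cells (blue, measured) for the 16 clones with a gene name whose change was called and whose wild-type response was tested. Red lies left of blue for 15 clones, and right of it for STWRKY8 alone. The gap between them equals the change by which the clones were chosen, so this split only repeats its direction. With the sign of the genotype ratios turned, 15 of the 16 would lie on the right.

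For other genes no difference between the 2 responses was called. All 6 METK1 clones that were tested in both rose, by 0.95 to 1.80 in silenced cells and by 0.84 to 1.84 in wild-type cells. PPA1 rose by 1.30 ± 0.21 in silenced cells and 0.99 ± 0.12 in wild-type cells, and LPD2, a dihydrolipoamide dehydrogenase, by 1.04 ± 0.22 in silenced cells and 1.17 ± 0.13 in wild-type cells. These enzymes rose in both genotypes. Of 8 GAPDH clones, 6 fell in silenced cells, by 0.69 to 1.12, and the same clones stood at -1.14 to -0.69 in wild-type cells. BEL5 (-1.39 ± 0.24 in silenced, -1.06 ± 0.14 in wild-type cells), a KST1 clone (-1.16 ± 0.29 in silenced, -0.99 ± 0.17 in wild-type cells), a SI1 clone (-1.13 ± 0.26 in silenced, -1.30 ± 0.16 in wild-type cells) and a RGGA clone (-1.09 ± 0.19 in silenced, -0.79 ± 0.11 in wild-type cells) fell in both. These were the largest falls of SI1 and RGGA in silenced cells. The other SI1 clone tested stood at -0.89 there and the other RGGA clones at -0.77 to -0.57. The SI1 clone at -0.89 and the RGGA clone at -0.57 lost their call when 1 array was left out. RSI5 (1.79 ± 0.51 in silenced, 0.95 ± 0.30 in wild-type cells), the flowering regulator CO (1.01 ± 0.29 in silenced, 0.64 ± 0.19 in wild-type cells) and the auxin response protein IAA2 (0.88 ± 0.30 in silenced, 0.71 ± 0.17 in wild-type cells) rose in both. SHMT rose by 0.88 ± 0.29 in silenced cells and stood at 0.37 ± 0.17 in wild-type cells, where it was not called. That no difference was called does not show that these responses were equal. Some calls in silenced cells were lost without 1 array. IAA2 stood at 0.58 without harpin array 2, 0.83 without control array 1 and 0.67 without wild-type array 2. SHMT stood at 0.78 without harpin array 1, 0.81 without control array 3 and 0.73 without wild-type array 2, and RSI5 at 1.11 without that last array. The GAPDH clones at -0.69 and -0.90 were also not called without control array 1 (-0.63 and -0.79) or harpin array 3 (-0.60 and -0.84). With the sign of the genotype ratios turned, METK1, PPA1 (0.68), LPD2 (1.31), BEL5 (-0.72) and the first SI1 (-1.48) and RGGA (-0.49) clones were still called in the same direction in silenced cells. The other SI1 clone (-0.44), 1 of the other RGGA clones (-0.48), RSI5 (0.10), CO (0.27), IAA2 (0.54) and SHMT (-0.15) were not called.

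To see what set 4 h of harpin apart, the silencing effect there was compared with the mean of the other 7 conditions. It differed for 1502 of 6602 clones (22.8%), 624 above the mean (9.45%) and 878 below it (13.3%). Without harpin array 2 the count was 965. Among 120 clones with a gene name, 5 lay above and 25 below. As a description over clones, the effect at 4 h of harpin correlated with that at 8 h of harpin at r = 0.648 (7675 clones), in the biotic control at 0.612, at 4 h of megaspermin at 0.583, at 4 h of xanthine oxidase at 0.548, in the xanthine control at 0.527, at 8 h of xanthine oxidase at 0.501 and at 8 h of megaspermin at 0.382. All conditions share the cultures, the array design and the dye orientation.

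AMYA1 was at -0.92 with 4 h of harpin, against a mean of 0.00 in the other 7 conditions, where it ran from -0.19 to 0.40 (difference -0.92 ± 0.13; limma adjusted p = 1.30e-05). PKIN1 was at -0.60 with 4 h of harpin, against -0.06 to 0.61 elsewhere (difference -0.84 ± 0.15). STUGE51 was at -1.77 with 4 h of harpin, against -1.24 to -0.29 elsewhere (difference -1.05 ± 0.17), and its other clone was also the lowest of the 8. Each of these had its lowest value of the 8 conditions at 4 h of harpin. NAC2 was at -0.07 with 4 h of harpin, against 0.30 to 1.63 elsewhere, so it was the only condition in which NAC2 was not above 0 (difference -0.98 ± 0.16). SUT2 (difference -0.62 ± 0.16), PAIN-1 (-0.71 ± 0.15), CDPK2 (-0.59 ± 0.14), BRP1 (-0.83 ± 0.14) and SHKA, the first enzyme of the shikimate pathway (-0.57 ± 0.15), were also lowest at 4 h of harpin. Without array 2 the SUT2 difference was -0.35, and without array 1 that of SHKA was -0.52, and neither was called.

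For PHA2, MS and METK1 the other conditions were not alike. The PHA2 clone at -0.72 with 4 h of harpin stood at 0.03 with 8 h of harpin and 0.06 in the biotic control, but at 0.77 to 1.12 with megaspermin and in the 3 xanthine conditions (difference from the mean -1.38 ± 0.22). Of 4 PHA2 clones 3 were called below the mean. MS clone 3 was at -0.01 with 4 h of harpin and 0.26 in the biotic control, against 0.88 to 1.28 in the other 6 conditions (difference -0.94 ± 0.14), and 4 of 5 MS clones were called below the mean. The lowest METK1 clone was at -0.41 with 4 h of harpin, close to -0.25 in the biotic control and -0.23 at 8 h of harpin, and the xanthine conditions reached 0.62 to 1.13 (difference -0.72 ± 0.15). The ethylene and methionine list had 8 of 20 clones called below the mean and 1 above, beside 13.3% below and 9.45% above over all clones tested. Of the 8, 4 were clones of MS alone, so they do not stand for 8 genes. The list median was -0.32 against -0.01 over all clones. A pair of those MS calls was lost without array 2 (-0.40 and -0.51), and 1 METK1 call without array 1 (-0.54) or 3 (-0.42).

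Above the mean lay SHMT, at 1.28 with 4 h of harpin, against 0.12 to 0.77 elsewhere (difference 0.81 ± 0.18), and PEST2, at 1.35 with 4 h of harpin, against -0.06 to 1.05 elsewhere (difference 0.98 ± 0.16). Both had their highest value at 4 h of harpin. In the biotic control SHMT stood at 0.77 and PEST2 at 1.05, and for neither was the change from there called. A CAT1 clone was less lowered than the mean of the other conditions, at -0.67 with 4 h of harpin, against -2.47 to -0.28 there (difference 0.77 ± 0.17). In the biotic control it stood at -0.28, so it was more lowered with harpin than in that control. The CAT1 clone with the strongest change from the control was not called different from the mean of the others (-1.31 with 4 h of harpin, against -1.44). A GAPDH clone lay 0.49 ± 0.16 above the mean, a call that was lost without harpin array 1 (0.37) and without array 2 (0.46). This clone stood at 0.28 with 4 h of harpin and at 0.30 in the biotic control. LOC102577893, the highest of the named loci, was at 3.58 with 4 h of harpin, against a mean of 1.78 elsewhere (difference 1.80 ± 0.14).

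**Figure D5:**
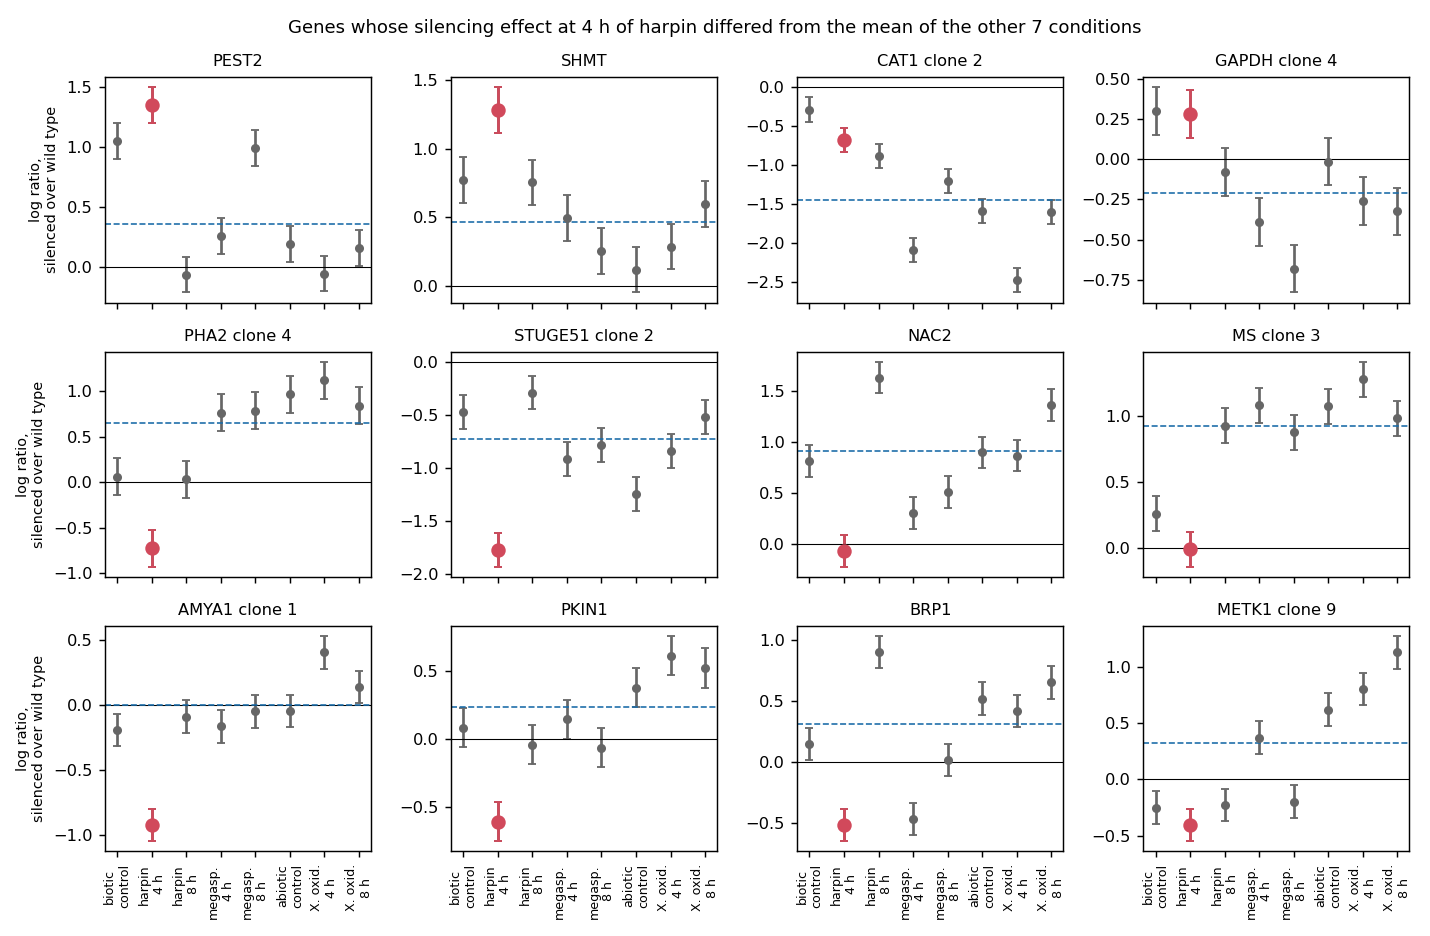
Log ratio of SIPK-silenced over wild-type cells (y axis, scale differs between panels) in 8 conditions (x axis) for the 12 clones with a gene name taken by the naming rule. Points are means of 3 arrays with standard errors, red marks 4 h of harpin, and the dashed line is the mean of the other 7 conditions: STUGE51, NAC2, AMYA1 and PKIN1 have their lowest value at the red point.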

How the data were processed

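The authors deposited 1 table of signed log ratios for 32448 spots on 32 arrays, read here as log2 values; no source used here states its base, normalization or direction. Array medians lay near 0 (-0.028, -0.008 and -0.014 for harpin at 4 h). Per the labels, silenced cells were the query in Cy3 and wild-type cells the reference in Cy5, and replicates were paired at random. Duplicate spots were averaged to 15360 clones, and 1728 spots without a partner were left out. Symbols came from a dated platform annotation (several symbols, 90 clones, not named; none, 14455). Sequences of the clones were not used here.

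One limma model (limma 3.58.1, R 4.3.3) with 10 group means over 30 arrays gave every comparison, with empirical Bayes moderation and Benjamini-Hochberg adjustment over all clones tested at 0.05. A clone was tested with values on at least 2 of 3 arrays in each group used, and 3 arrays per group limit the precision. The procedure was tested on simulated data. Python 3.11.15, pandas 2.3.3 and matplotlib 3.10.9 served for tables and figures.

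The arrays, lists and rules were chosen with earlier results of these data known. The text names called clones with a single symbol and the same sign on all measured harpin arrays: the 15 highest and 15 lowest with a gene name and 5 each with a locus number (8 and 3 for the other comparisons), 1 clone per symbol, and list members. Other clones named were chosen after their values were seen. Alternatives covered the arrays fitted, scaling, centring, missing values, duplicate spots, weights, size, dye, block and left-out replicates.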

Additional observations from a re-analysis of the deposited data

Results flagged for a closer look

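These genes stand out because the silencing effect at 4 h of harpin differed, by a test of the difference itself in limma, from that in the biotic control or from the mean of the other 7 conditions. No explanation was tested.

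From the biotic control to 4 h of harpin, the effect changed by 0.87 for STWRKY8, -1.47 for MIP2, -1.30 for STUGE51, -1.24 for ADH1, -1.19 for GBSS, -1.18 for SS16, -1.07 for PPO, -0.98 for CAT1 and -0.94 for PAIN-1. The changes of STWRKY8, ADH1, SS16 and PPO each lost their call without 1 array. All 3 harpin arrays (2 for MIP2) lay on 1 side of all 3 control arrays for these 9 genes. They were chosen because the change was called and every harpin array lay on 1 side of the control mean. The separation therefore adds no separate support, and its share over all clones is not given here. Among locus-numbered clones it changed by 1.75 for LOC102589404, 1.60 for LOC102582822 and 1.48 for LOC102585585, and by -1.80 for LOC102591352, -1.77 for LOC102591690 and -1.77 for LOC102590714.

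Against the mean of the other 7 conditions, the effect at 4 h of harpin was higher by 0.98 for PEST2, 0.81 for SHMT, 0.77 for CAT1 and 0.49 for GAPDH. This CAT1 clone stood at -0.67 with 4 h of harpin and at -0.28 in the control. It is not the clone that changed by -0.98 from the control. That clone stood at -1.31 with 4 h of harpin, against a mean of -1.44 in the other conditions, and was not called there. The GAPDH difference was not called without harpin array 1 (0.37) or 2 (0.46), and this clone stood at 0.28 with 4 h of harpin and 0.30 in the control. The difference was -1.38 for PHA2, -1.05 for STUGE51, -0.98 for NAC2, -0.94 for MS, -0.92 for AMYA1, -0.84 for PKIN1, -0.83 for BRP1 and -0.72 for METK1. Among locus-numbered clones it was 1.80 for LOC102577893, 1.36 for LOC102600029 and 1.19 for LOC102595943, and -1.48 for LOC102591352, -1.35 for LOC102583115 and -1.14 for LOC102601725. STUGE51 and LOC102591352 were low by both comparisons.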

How the results depend on the processing

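Of 2664 clones that differed at 4 h of harpin, 498 differed by at least 1 as well, and with a dye term 1644 were called. Without 1 replicate the count ran from 1939 to 2202. The 1198 changes from the biotic control became 2114 with array weights and 394 with a size of at least 1, and 805 to 993 without 1 replicate. The 1502 differences from the other 7 conditions ran from 965 to 1199 without 1 harpin replicate, and the 2150 derived responses from 1396 to 2099 without 1 replicate. The other settings kept each count within 1.5 times. Among called clones with a gene name none changed sign in these settings, but many lost their call in at least 1: 21 of 43 kept it in every setting that tested them at 4 h of harpin, 7 of 19 for the change, 19 of 30 against the other conditions and 25 of 50 for the derived response. With the sign of the genotype ratios turned, chosen after the data were seen, 2474 derived responses were called. Among the clones named by rule for this response, the value changed sign for STWRKY8 (-0.39), SHMT (-0.15), PPO (0.37), GBSS (0.76), LOC102589404 (-0.85) and LOC102590714 (1.13). Other called clones with a gene name changed sign too. Among them a CAT1 clone (0.68), VPE2 (0.69) and BRP1 (0.61) were called in the opposite direction, while TS (0.06), a FLS clone (-0.19) and PR1B (-0.17) were not called. With the replicate number as a block 2591 clones differed, 1116 changed, 1434 differed from the other conditions and 2075 responded. The labels state random pairing, and deviations of same-numbered harpin and control arrays correlated at 0.116, -0.153 and -0.225, so the numbers were not taken as pairs. The dye term rests on 2 arrays, neither of them with harpin in silenced cells, and takes their signs as already turned. Clones without a value on 2 of 3 arrays were not tested, and 6857 of 15360 fall there at 4 h of harpin.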
